A study of Mus musculus with 30 samples.

Results

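The IL-1 receptor family was followed in dendritic cells grown from mouse bone marrow (BMDCs). It was taken as 8 of the 43629 genes in the count table, namely Il1rl2, Il1rl1, Il1r1, Il1r2, Il1rap, Il18r1, Il18rap and Sigirr, each found by its Ensembl identifier. Il1rl2 was chosen by its counts, which were lower in the WT libraries named 24h than in those named ctrl, so its values in comparisons that use those libraries are a description with no test. The other 7 genes were added by name as members of the same family.

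The table holds 30 libraries from 5 WT cultures of strain C57BL/6J (in the order used below p974s846, p974s850, p974s855, p974s856, p974s864) and 5 Cacnb3-KO cultures (p974s843, p974s851, p974s852, p974s853 and p974s865), with 1 library named ctrl, 1 named 0p5h and 1 named 24h from each. All cultures came from bone marrow of mice of 6 to 12 weeks and both sexes, and were grown for 6 days with GM-CSF at 20 ng/ml. The stimulus was a pulse of 500 µM ATP for 30 min. The labels have the early harvest at the end of the pulse, while the study's text places it 30 min after the pulse, and the late harvest came 24 h later. For 20 libraries the fields of the labels contradict each other, because the treatment field gives ATP to those named ctrl and vehicle to those named 0p5h. Sets are called here by the library names. A difference between ctrl and 0p5h thus has the opposite sense under the other reading, while the set named 24h is the same under both. All libraries named 24h had ATP, so in changes to that set ATP and the added time cannot be told apart.

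The KO mice were kept on a C57BL/6N background, so that genotype and substrain cannot be told apart. Cacnb3, the targeted gene, was still counted in the libraries labelled KO, at 573 to 1331 CPM (counts per 1000000 reads of the TMM-normalized library size) against 1035 to 2143 CPM in WT. Means over the 3 libraries of a culture did not overlap, at 880.4 to 1085 CPM in the 5 KO cultures and 1181 to 1599 CPM in the 5 WT cultures, and neither did the 24h libraries, at 573 to 1295 and 1303 to 2143 CPM, while the ctrl and 0p5h libraries did. With libraries summed the log2 difference was -0.42 (SE 0.12, edgeR adjusted p = 0.127), which has the direction of the labels and did not pass the test. Of 10 cultures, 8 had all their libraries in 1 sequencing lane. Libraries held 8237393 to 32164225 counted reads. Of the dendritic cell markers, Cd209a had a median under 1 CPM, while the 8 markers summed to between 10711 and 33316 CPM in every library.

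Receptors of the IL-1 family are single-pass membrane proteins with immunoglobulin domains outside the cell and a Toll/IL-1 receptor (TIR) domain inside it. A ligand-binding chain pairs with an accessory chain, and the joined TIR domains recruit MyD88 and the IRAK kinases, which lead to NF-kB and MAP kinase activation. The family also holds brakes, since a decoy chain without a TIR domain takes up ligand and an orphan chain dampens signalling. In dendritic cells these receptors are known for tuning maturation and cytokine output in response to alarm signals.

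Most members are neighbours. On mouse chromosome 1, Il1r2, Il1r1, Il1rl2, Il1rl1, Il18r1 and Il18rap lie on the + strand between positions 40074079 and 40551705 of GRCm38, a stretch of 478 kb. It holds 11 gene models, and the 5 that are not members had at most 18 reads in any library. Il1rl1 ends 136 bases before Il18r1 starts. Il1rap lies on chromosome 16 (26581704 to 26730117, + strand) and Sigirr on chromosome 7 (141091175 to 141100546, - strand). The exons of Il1rap share 552 bases (4.86%) with Gm20319 on the opposite strand, which had 0 reads in every library, and the exons of the other members overlap no other gene model.

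Levels of different genes were compared as RPKM, the CPM per kb of exon, with the mean of 3 libraries as the value of a culture. Il1r2, the decoy, stood highest, with a median of 219 RPKM over 10 cultures (91.7 to 437). Its median was 14.8 times that of Il18r1, the ligand-binding chain for IL-18, which had 14.8 RPKM (6.8 to 21.6). Next came Sigirr with 12.6 RPKM (9.2 to 18.7) and Il18rap, the accessory chain for IL-18, with 7.21 RPKM (5.88 to 12.6). Il1rl2, which binds IL-36, had 1.87 RPKM (0.755 to 4.11), and Il1r1, the signalling receptor for IL-1, had 1.74 RPKM (0.819 to 5.35). Lowest were Il1rap, the accessory chain shared by the receptors for IL-1, IL-33 and IL-36, with 0.327 RPKM (0.215 to 0.44), and Il1rl1, the receptor for IL-33, with 0.118 RPKM (0.0532 to 0.395). Culture ranges did not overlap between Il1r2 and Il18r1, between Il18rap and Il1rl2, or between Il1r1 and Il1rap. All other neighbours in the order overlapped, and Il1rl2 exceeded Il1r1 in 5 of 10 cultures. Il1rapl1 and Il1rapl2, accessory-like genes outside the list, had at most 1 read in any library.

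**Figure D1:**
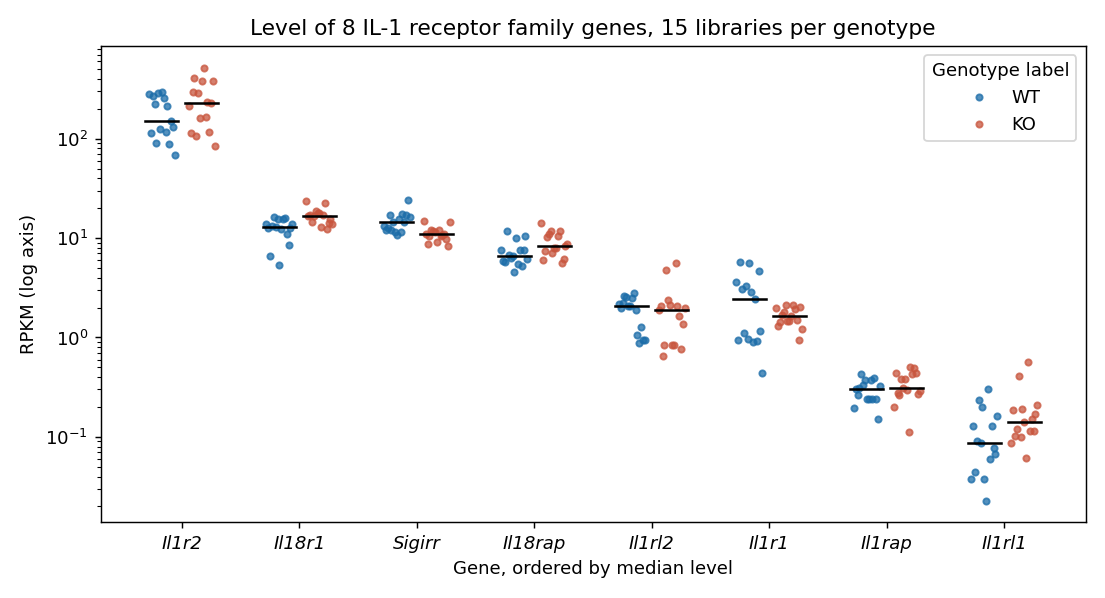
Level of each member in RPKM (log axis) in the 15 WT and 15 KO libraries, where each point is 1 library and each bar is a median. Il1r2 lies above all other members in every library, and Il1rap and Il1rl1 have the lowest medians.

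Il1rl2 (ENSMUSG00000070942, chromosome 1, 40324610 to 40367562) was lower at 24h in all 5 WT cultures. In WT libraries named ctrl it was counted at 14.7, 13.3, 15, 17.8 and 17.4 CPM in cultures p974s846, p974s850, p974s855, p974s856 and p974s864. In those named 0p5h the values were 14.2, 14, 16.9, 19.1 and 12.9 CPM in the same order. At 24h they were 7.18, 6.01, 8.64, 6.48 and 6.39 CPM. The 24h values did not overlap those of either other set, and the means were 15.7 ± 1.9, 15.4 ± 2.55 and 6.94 ± 1.04 CPM (SD, n = 5). As the values that brought the gene into view, they are given with no test. The fitted log2 change was -1.16 (SE 0.14) from ctrl to 24h and -1.15 (SE 0.15) from 0p5h to 24h. Within the 5 cultures, the log2 change from ctrl to 24h ran from -1.44 to -0.79, and 11.6% of all genes went down in 5 of 5. In the ctrl to 24h comparison, 0.0152% of the 13176 genes tested were called in either direction by edgeR's quasi-likelihood test (adjusted p under 0.05 and at least 2-fold), from which nothing is read for Il1rl2. With any 1 WT culture left out its log2 change was between -1.27 and -1.09. A lower count in a culture can mean fewer cells of a type or less RNA per cell, which bulk libraries cannot tell apart.

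KO cultures varied more among themselves. In the KO libraries named ctrl, Il1rl2 was at 13, 14.2, 4.41, 5.77 and 32.4 CPM in cultures p974s843, p974s851, p974s852, p974s853 and p974s865. The libraries named 0p5h had 16.3, 14.4, 5.73, 5.66 and 38.1 CPM, and those named 24h had 14.1, 11.2, 5.28, 9.23 and 13.5 CPM. Culture p974s865 stood highest in ctrl and 0p5h, culture p974s852 was lowest in ctrl and 24h, and the sets overlapped throughout. From ctrl to 24h, 3 KO cultures were higher and 2 lower, with log2 changes between -1.25 (culture p974s865) and 0.67 (culture p974s853). The fitted change was -0.40 (SE 0.47, edgeR adjusted p = 0.664) from ctrl to 24h and -0.57 (SE 0.48, adjusted p = 0.518) from 0p5h to 24h. Without culture p974s865 these were 0.08 (adjusted p = 0.919) and -0.08 (adjusted p = 0.911). The KO change from ctrl to 24h exceeded the WT change by 0.77 (SE 0.52) on the log2 scale, given with no test because the WT libraries chose the gene. In WT, culture means of Il1rl2 over the 3 sets differed by at most 1.3-fold while set means differed by 2.26-fold. Among KO cultures it was the reverse, at 5.44-fold between cultures and 1.5-fold between sets. Choosing a gene by its WT change favours a small WT spread and a large WT set gap, so nothing is read from this contrast.

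**Figure D2:**
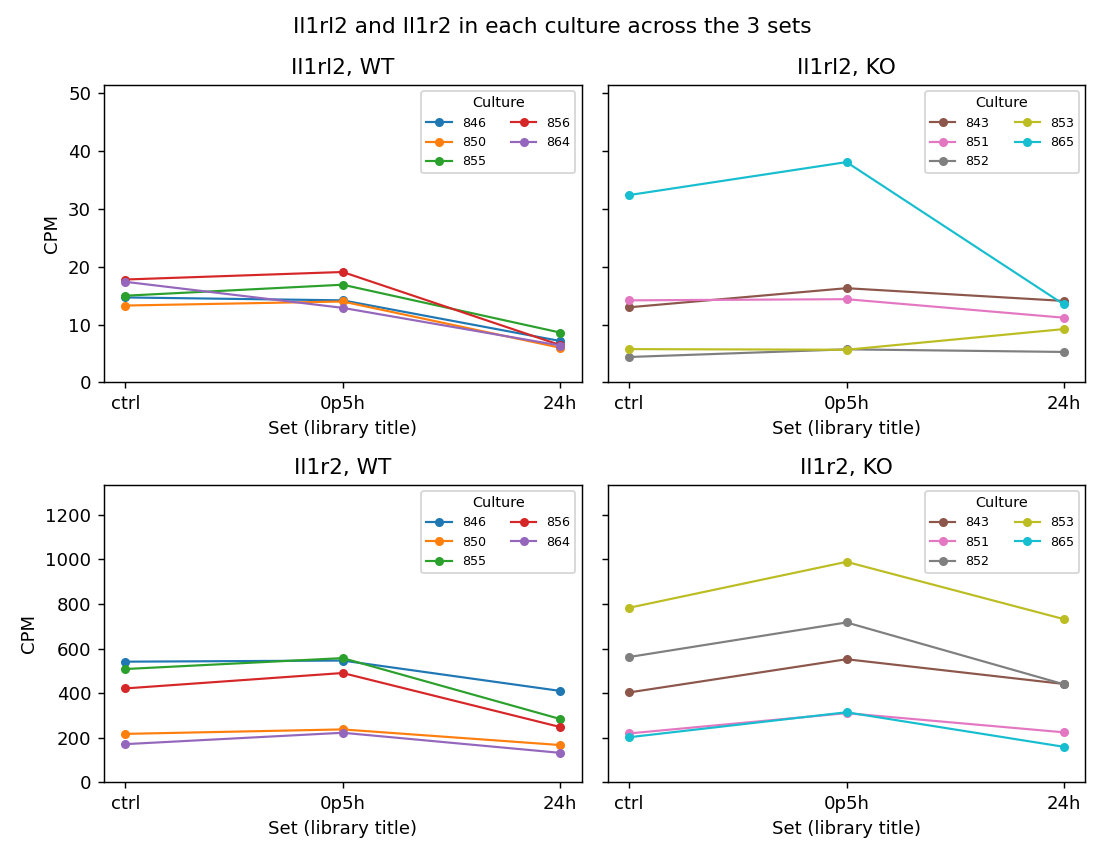
Il1rl2 (upper panels) and Il1r2 (lower panels) in CPM in the sets ctrl, 0p5h and 24h, with WT cultures at the left and KO cultures at the right and 1 line per culture, keyed by the last 3 digits of its name. All 5 WT lines of Il1rl2 go down to 24h, while only some KO lines do, and all 10 lines of Il1r2 go down from 0p5h to 24h.

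A list of 7 macrophage markers (Csf1r, Mertk, Adgre1, Fcgr1, Cd14, C1qa and C1qb, none with a median under 1 CPM) was followed beside Il1rl2. Its summed level was 1106 to 1944 CPM in WT ctrl, 1449 to 3049 CPM in WT 0p5h and 659.8 to 1654 CPM in WT 24h libraries. From ctrl to 24h it went down in 5 of 5 WT cultures, as Il1rl2 did, but also in 5 of 5 KO cultures, of which 3 had more Il1rl2 at 24h. In KO cultures p974s843, p974s851, p974s852, p974s853 and p974s865 it went from 1602, 1714, 571, 741 and 2623 CPM in ctrl to 1133, 1098, 475, 573 and 1523 CPM at 24h. From ctrl to 0p5h the sum went up in all 10 cultures, while mean Il1rl2 in WT was 15.7 and then 15.4 CPM. Between KO cultures, p974s865, with the highest Il1rl2, had 1523 to 4004 CPM of these markers, and p974s852 and p974s853, with the lowest, had 475 to 629 and 573 to 1006 CPM. The 8 dendritic cell markers gave the same extremes, with medians of 26489 CPM in p974s865, 12379 CPM in p974s852 and 14782 CPM in p974s853. The part of either list in the level of Il1rl2 was not tested. Mast cells, basophils and innate lymphoid cells are also known for receptors of this family. Of 9 mast cell and basophil markers, 6 had a median under 1 CPM, among them Fcer1a, Ms4a2 and Mcpt8. Kit, Cpa3 and Gata2 did not, and the 9 summed to between 84.2 and 199 CPM. Of 8 T, NK and innate lymphoid markers, 7 had a median under 1 CPM, with Gata3, Cd3e and Ncr1 among them. Il7r did not, and the 8 summed to between 220 and 471 CPM. The 12 neutrophil markers summed to between 176 and 805 CPM, with Mpo and Elane under 1 CPM.

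The genes whose log2 CPM followed Il1rl2 most closely over the 30 libraries were Sqor (Pearson r = 0.92), Spata13 (0.91), Irak2 (0.91), Dpys (0.90) and Ctsc (0.90). These libraries share cultures and lanes, so the values are a description. For Irak2, a kinase of the pathway itself, r was 0.92 within WT and 0.91 within KO libraries. The other members were much less alike to Il1rl2, with r between -0.22 (Il1r2) and 0.35 (Il1r1 and Il1rap).

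Promoters are shown for Il1rl2, with the largest WT change, and for Il1r2, the member whose direction was shared by all 10 cultures, both of which lie in the chromosome 1 cluster. The sequences are from RefSeq on GRCm38.p6, + strand, with 250 bases before the RefSeq start in lower case and the 50 bases from the start in capitals. They span chr1:40324339-40324638 for Il1rl2 and chr1:40085843-40086142 for Il1r2.
Il1rl2: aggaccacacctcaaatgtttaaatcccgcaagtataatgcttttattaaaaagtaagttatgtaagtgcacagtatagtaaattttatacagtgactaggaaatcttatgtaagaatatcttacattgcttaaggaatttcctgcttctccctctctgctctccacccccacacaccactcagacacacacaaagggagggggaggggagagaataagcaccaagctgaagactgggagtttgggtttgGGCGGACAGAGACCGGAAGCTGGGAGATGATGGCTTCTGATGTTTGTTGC
Il1r2: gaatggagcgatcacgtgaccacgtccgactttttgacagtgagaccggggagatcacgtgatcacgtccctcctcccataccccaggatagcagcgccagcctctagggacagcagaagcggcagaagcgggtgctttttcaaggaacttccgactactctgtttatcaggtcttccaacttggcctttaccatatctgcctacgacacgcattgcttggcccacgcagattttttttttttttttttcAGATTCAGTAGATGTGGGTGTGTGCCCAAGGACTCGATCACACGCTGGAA
The RefSeq start of Il1rl2 (40324589) lies near the start of the counted gene (40324610), while that of Il1r2 (40086093) lies inside the counted gene, which starts at 40074079. Entries were found for 7 of 8 members, 11 promoters in all. On both strands, the AP-1 motif TGANTCA was in 0 of these 11 and in 7.81% of 32851 promoters of that length. The PU.1 core GAGGAA was in 3 (Il1rl1, Il18r1 and Il18rap) against 28.3%, and the short CRE motif TGACG in 2 (Il1r1 and Il1rl1) against 20.8%. The TATA box letters TATAAA were in 1, that of Il1rl2, against 13.6%. Such matches describe letters and not bound sites.

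Il1r2 (ENSMUSG00000026073, chromosome 1, 40074079 to 40125231) encodes the decoy for IL-1, which binds the ligand and cannot signal. WT libraries had 541, 217, 508, 421 and 171 CPM in ctrl, 546, 237, 557, 490.1 and 222 CPM in 0p5h, and 409.9, 167, 284, 248 and 132 CPM at 24h, in the order of cultures given above. KO libraries had 403, 219, 562, 783 and 202 CPM in ctrl, 552, 310, 717, 989 and 314 CPM in 0p5h, and 441, 224, 439.7, 732 and 159 CPM at 24h. Cultures kept wide gaps in every set, and within each culture the 0p5h library was the highest of the 3. From ctrl to 0p5h the log2 change was between 0.01 and 0.38 in the 5 WT cultures and between 0.34 and 0.64 in the 5 KO cultures. From 0p5h to 24h it was between -0.98 and -0.41 in WT and between -0.98 and -0.32 in KO cultures. For scale, 9.67% of genes went up in 5 of 5 WT cultures from ctrl to 0p5h and 9.76% in 5 of 5 KO cultures, and 14.5% and 19.1% went down in all from 0p5h to 24h.

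Compared between sets as separate libraries, Il1r2 was not called. From 0p5h to 24h, the log2 change was -0.72 (SE 0.35, adjusted p = 0.477) in WT and -0.52 (SE 0.42, adjusted p = 0.511) in KO BMDCs. From ctrl to 0p5h it was 0.16 (SE 0.37, adjusted p = 1) in WT and 0.40 (SE 0.42, adjusted p = 1) in KO BMDCs. With cultures as a replicate block, which sets aside the gaps between cultures, the same differences had smaller errors. They were then -0.72 (SE 0.10, adjusted p = 0.0026) in WT and -0.57 (SE 0.11, adjusted p = 0.00377) in KO from 0p5h to 24h, and 0.44 (SE 0.07, adjusted p = 0.00798) in KO from ctrl to 0p5h. In WT from ctrl to 0p5h the value was 0.18 (SE 0.05, adjusted p = 0.0654), which did not pass. With the lane as a covariate and no block it was -0.09 (adjusted p = 0.956). As 4 of 5 WT cultures stayed in 1 lane, lane and gaps between cultures cannot be told apart in that fit. Within cultures Il1r2 went up in 5 of 5. The 3 that passed were under 2-fold and so were not calls. The background was wide in these fits, since 11.3%, 28.6% and 2.35% of all genes tested had an adjusted p under 0.05 in the same order. The difference between genotypes in these changes was not past the threshold with or without the block.

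Il1r1 (ENSMUSG00000026072, chromosome 1, 40225080 to 40317257), which binds the same ligands and signals, varied mainly between WT cultures. WT libraries had 23.2, 5.97, 37.0, 19.7 and 7.12 CPM in ctrl, 21.2, 6.17, 35.4, 18.4 and 5.68 CPM in 0p5h, and 15.4, 5.9, 29.8, 7.42 and 2.82 CPM at 24h. The KO libraries lay closer together, at 8.42 to 12.6 CPM in ctrl, 9.31 to 13.5 CPM in 0p5h and 5.98 to 12.8 CPM at 24h. Culture means over the 3 sets thus differed by up to 6.54-fold in WT and 1.57-fold in KO BMDCs. WT culture p974s855 was the highest in every set, and the KO range lay inside the WT range in all 3 sets. From 0p5h to 24h Il1r1 was lower in 5 of 5 WT cultures, at a log2 change of -0.50 (SE 0.63, adjusted p = 0.843; with the block -0.58, SE 0.17, adjusted p = 0.0569). The KO cultures were mixed, with 2 higher and 3 lower.

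The balance of decoy and signalling receptor was summarised as the log2 ratio of Il1r2 to Il1r1 RPKM within a culture. It was 6.39, 6.83, 5.41, 6.48 and 6.88 in WT cultures, a mean of 6.40 ± 0.59 (SD, n = 5), which corresponds to 84.2 times as much Il1r2. In KO cultures it was 6.91, 6.50, 7.87, 7.94 and 6.08, a mean of 7.06 ± 0.83 (SD, n = 5), or 134 times. Cultures p974s852 and p974s853 lay well above all WT cultures, p974s843 at 6.91 lay just above the highest WT culture at 6.88, and the other 2 KO cultures lay within the WT range. The difference of 0.67 on the log2 scale did not pass a test (p = 0.183, two-sided exact permutation test, where this design can reach 0.00794). Each set alone gave a difference of 0.54 to 0.77.

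Il1rl1 (ENSMUSG00000026069, chromosome 1, 40429570 to 40465415), also named ST2, was close to the limit of these libraries, with 3 to 72 reads. WT libraries had 0.258 to 1.62 CPM in ctrl, 0.158 to 2.08 CPM in 0p5h and 0.412 to 1.13 CPM at 24h. KO libraries had 0.597 to 2.83, 0.42 to 3.89 and 0.792 to 1.44 CPM. Cultures p974s864 (WT) and p974s865 (KO) were the highest of their genotype in every set, and the genotypes overlapped in all 3. No change between sets had a consistent direction over the 5 cultures of a genotype, and at this depth the fitted changes carried errors of up to 0.70 on the log2 scale.

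Il1rap (ENSMUSG00000022514) was likewise low, with 22 to 113 reads. Its group means were 3.40 ± 0.958, 3.57 ± 0.799 and 3.06 ± 1.03 CPM in WT ctrl, 0p5h and 24h, and 3.56 ± 1.08, 3.65 ± 1.63 and 4.39 ± 1.15 CPM in the KO sets (SD, n = 5). All 6 groups overlapped, from 1.26 CPM in a KO 0p5h library to 5.72 CPM in another of the same group. The largest change between sets was 0.30 (SE 0.26, adjusted p = 0.562) from ctrl to 24h in KO BMDCs.

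Il18r1 and Il18rap, the pair that forms the receptor for IL-18, were steady over the sets. Il18r1 (ENSMUSG00000026070, chromosome 1, 40465552 to 40500854) had means of 60.1 ± 17.1, 59.5 ± 20.2 and 60.0 ± 13.8 CPM in WT ctrl, 0p5h and 24h. In KO BMDCs it had 85.1 ± 16.8, 81.3 ± 10.7 and 75.4 ± 19.1 CPM. Il18rap (ENSMUSG00000026068, chromosome 1, 40515362 to 40551705) had 50.7 ± 16.5, 44.8 ± 14.3 and 50 ± 13.2 CPM in WT and 65.8 ± 21.3, 61.2 ± 13.5 and 55.1 ± 16.6 CPM in KO BMDCs (SD, n = 5). WT culture p974s855 had the least Il18r1 in every set, at 25.7 to 40.8 CPM, and also the most Il1r1. Il18rap was lower at 24h than in ctrl in 5 of 5 KO cultures, by log2 changes between -0.32 and -0.10, where 14.6% of all genes went down in 5 of 5. The fitted change was -0.26 (SE 0.25, adjusted p = 0.594).

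**Figure D3:**
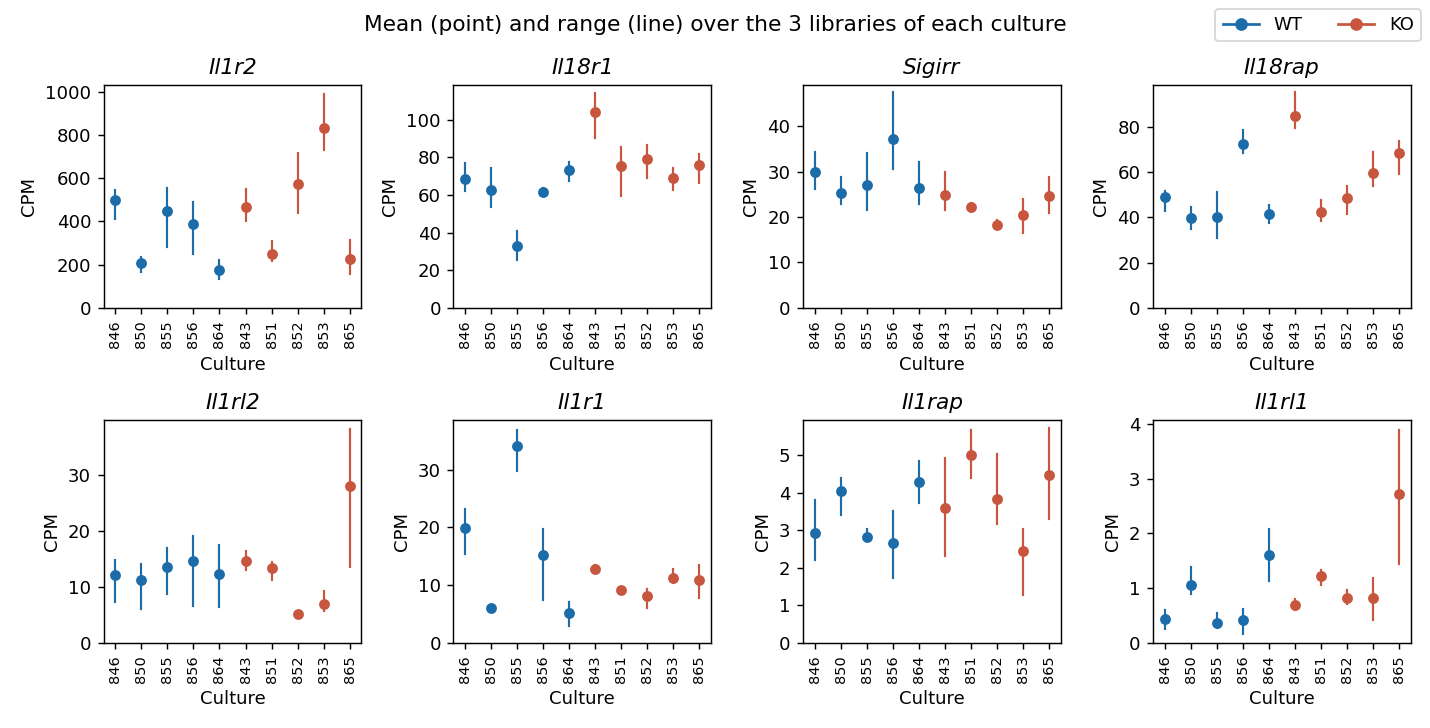
Level of each member in CPM by culture (last 3 digits of its name), where the point is the mean of the 3 libraries of a culture and the line runs from the lowest to the highest of them. Il1r1 and Il18r1 set WT culture p974s855 apart, and Il1rl2 sets KO culture p974s865 above and cultures p974s852 and p974s853 below the rest.

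Sigirr (ENSMUSG00000025494), an orphan chain known to dampen signalling by the IL-1 and Toll-like receptors, went the other way from Il1rl2 in WT BMDCs. WT libraries had 26.1, 24.1, 25.3, 33.6 and 24.1 CPM in ctrl, 28.7, 22.9, 21.6, 30.6 and 22.9 CPM in 0p5h, and 34.4, 28.9, 34.1, 47.5 and 32.2 CPM at 24h. Each WT culture was higher at 24h than in its other 2 libraries, although the ranges of the sets overlapped through culture p974s856. KO libraries had 29.8, 21.9, 17.4, 20.7 and 24.1 CPM in ctrl, 23.3, 23.1, 18.2, 24.0 and 20.8 CPM in 0p5h, and 21.5, 22, 19.3, 16.5 and 28.9 CPM at 24h. There the sets overlapped and the cultures moved in both directions. From 0p5h to 24h the WT change was 0.49 (SE 0.15, adjusted p = 0.215), with within-culture log2 changes of 0.26 to 0.66, and 12.8% of all genes went up in 5 of 5 cultures. With the replicate block it was 0.48 (SE 0.08, adjusted p = 0.00681), again under 2-fold. In KO BMDCs the change was -0.00 (SE 0.16, adjusted p = 0.998). The difference between genotypes in this change was -0.50 (SE 0.22), with an adjusted p of 0.68 and of 0.108 with the block, so it did not pass the threshold.

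**Figure D4:**
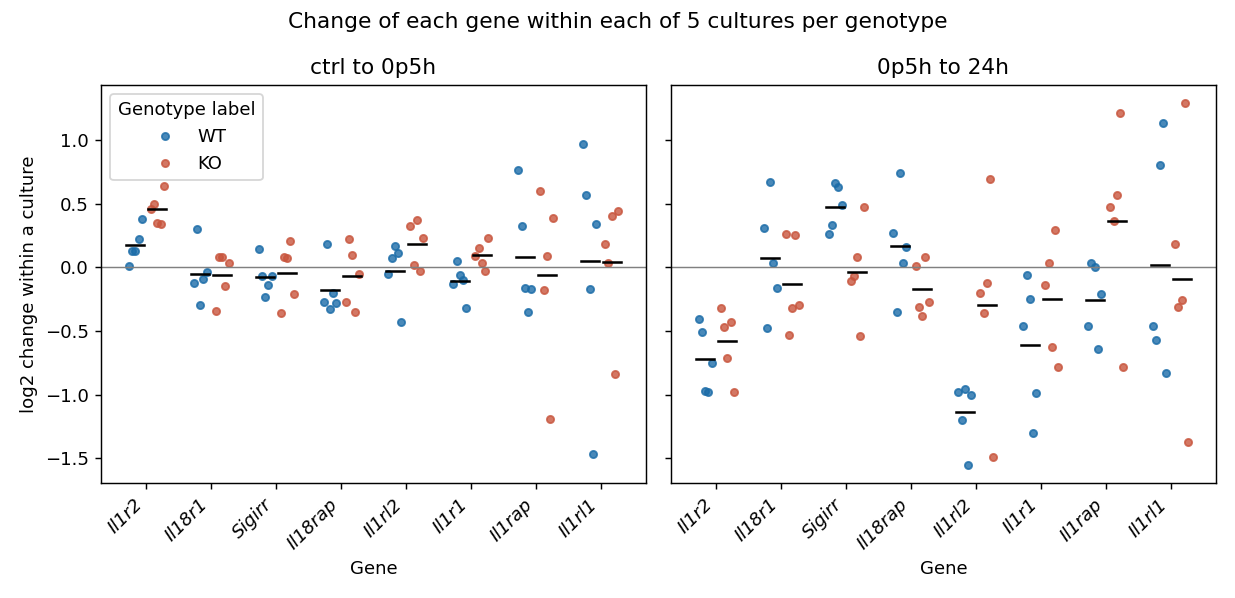
Log2 change within each culture from ctrl to 0p5h (left) and from 0p5h to 24h (right) for the 8 members, where each point is 1 culture (WT or KO) and bars are means. Il1r2 is above 0 in all 10 cultures at the left and below 0 in all 10 at the right, and WT points of Sigirr lie above 0 and those of Il1rl2 below 0 at the right.

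Between sets, 0 of 8 members were called in KO BMDCs and 0 of the 7 members other than Il1rl2 in WT from ctrl to 0p5h or from 0p5h to 24h (edgeR). The share of all genes called in either direction was 0.176% in WT and 0.29% in KO BMDCs from ctrl to 0p5h, 0% in KO from ctrl to 24h, and 0.639% in WT and 0.66% in KO from 0p5h to 24h. In KO from ctrl to 24h, 1343 genes were under 0.05 before adjustment, and 42 higher and 6 lower calls came from DESeq2. From ctrl to 0p5h the median log2 change of the members was -0.01 over 7 genes in WT and 0.06 over 8 in KO, against 0.01 and -0.01 over all genes. From 0p5h to 24h it was -0.21 over 7 genes in WT and -0.17 over 8 in KO, against 0.01 and -0.00 over all genes. All 8 members passed the filter on low counts in each comparison.

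In the comparison of genotypes, no member was called either, and 0% of all genes were called within ctrl, within 0p5h, within 24h or with the 3 libraries of each culture summed (edgeR). Without adjustment, p was under 0.05 for 2161, 2103, 4877 and 3449 genes in this order. DESeq2 called 43 higher and 103 lower in ctrl, 38 and 46 in 0p5h, 388 and 218 at 24h, and 132 and 118 with libraries summed. Among the members, Sigirr at 24h came nearest. It was 35.4 ± 7.09 CPM in WT and 21.6 ± 4.61 CPM in KO libraries (SD, n = 5), a log2 difference of -0.69 (SE 0.18, adjusted p = 0.0515). That value was also the smallest adjusted p of any of the 12706 genes tested there. The adjustment can give many genes the same smallest value, so it does not set Sigirr apart. The highest KO library (culture p974s865) and the lowest WT library (culture p974s850) both had 28.9 CPM, so that the groups met at that value. The difference had an adjusted p of 0.00777 with DESeq2 and 0.00499 with all 30 libraries in the fit, where 13.1% and 29% of all genes had one under 0.05, and it stayed under 2-fold in both. The fit of all 30 treats the 3 libraries of a culture as separate, so its p does not measure the spread between cultures alone. Within lanes 1, 2 and 3 the difference was -0.47, -0.48 and -0.84, from 2 WT and 1 KO, 2 and 1, and 1 and 3 libraries. In ctrl and 0p5h, Sigirr differed by -0.20 in each (adjusted p = 0.499 and 0.468). A list of 9 mature migratory dendritic cell markers (Ccr7, Fscn1, Relb, Cd40, Cd83, Ccl22, Ccl17, Il4i1 and Socs2) summed to 20210.5 to 29334 CPM in WT 24h libraries. In KO 24h libraries it summed to 10936 to 18435 CPM, while the genotypes overlapped in ctrl and 0p5h. The part of this list in the genotype differences of the members or of Cacnb3 was not tested.

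Removing the trend against GC content changed the genotype difference of some members at 24h. By the longest transcript of each gene, Sigirr has the highest GC content of the members (56.1%) and Il1rap the lowest (40.0%). With each library's trend against GC content removed, the difference was -0.32 (SE 0.11, adjusted p = 0.132) for Sigirr, and for Il1rap it went from 0.53 (SE 0.28, adjusted p = 0.174) to 0.05 (SE 0.22, adjusted p = 0.902). Il18r1 went from 0.34 to 0.05 and Il1rl1 from 0.65 to 0.38. Il1r2, with 48.3% GC, was at 0.70 (SE 0.40, adjusted p = 0.207) before and 0.66 after. Il1rl2 differed by 0.63 (SE 0.24) before and 0.52 after, given with no test. The differences before removal did not follow GC content in order. Il1r2 and Il1rl2 (46.9% GC) were higher than Il18rap (45.1%), at 0.15, and Il1r1 (45.4%), at -0.34. Il1r1 stayed between -0.56 and -0.35 in the 6 alternative fits, removal of the trend among them.

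**Figure D5:**
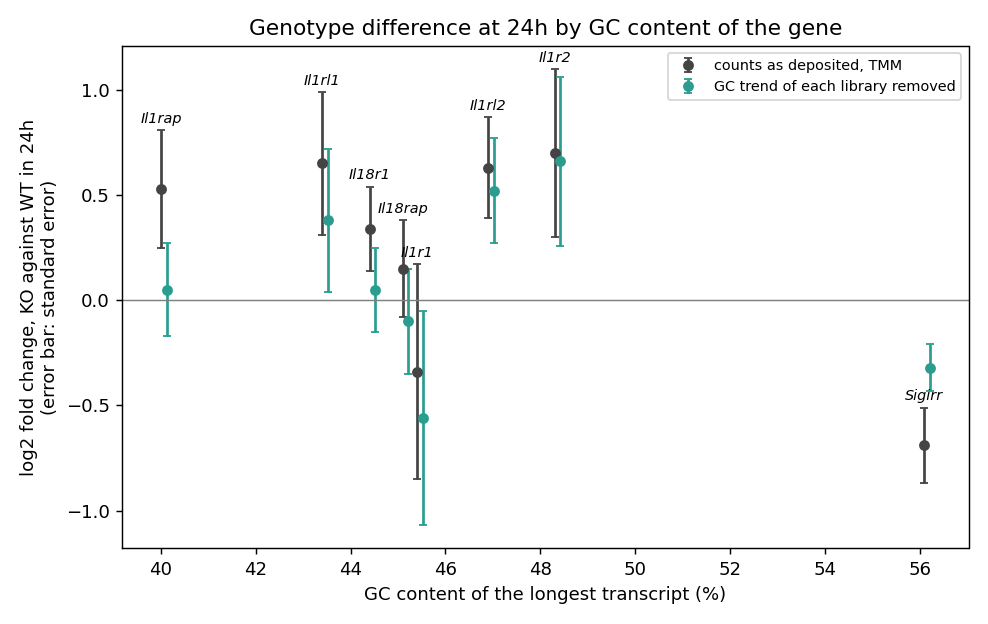
Log2 difference of KO against WT at 24h for the 8 members (with SE bars, n = 5 per genotype) against GC content. GC content is that of the longest transcript of each gene, in percent. Differences are shown after TMM normalization and with the GC trend of each library removed. Sigirr at 56.1% GC and Il1rap at 40.0% both move towards 0 once the trend is removed.

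Among the other members, Il18r1 was higher in KO by 0.53 (SE 0.21, adjusted p = 0.275) in ctrl, 0.47 (SE 0.24, adjusted p = 0.345) in 0p5h and 0.43 (SE 0.20, adjusted p = 0.216) with libraries summed. Il18rap was higher by 0.40, 0.47 and 0.15 in ctrl, 0p5h and 24h (adjusted p = 0.419, 0.301 and 0.643). Il1r1 was lower by -0.80 (SE 0.42, adjusted p = 0.349) in ctrl and -0.62 (SE 0.43, adjusted p = 0.474) in 0p5h. Within lanes 1, 2 and 3 its difference in 0p5h was 0.65, -0.81 and -1.57, from 2 WT and 1 KO, 2 and 2, and 1 and 2 libraries. The 1 WT library in lane 3 was of culture p974s855, so lane and culture cannot be told apart. At 24h the difference of Il1r1 was -0.34 with all cultures and 0.30 without WT culture p974s855. Il1rl2 in 0p5h, the genotype comparison without the libraries that chose it, differed by 0.07 (SE 0.44, adjusted p = 0.949). Over 88 tests of members in 12 comparisons, edgeR and DESeq2 called 0, and 6 had an unadjusted p under 0.05. Of these, 4 were of Sigirr, 1 of Il18r1 and 1 of Il18rap, and all 4 of Sigirr used the WT 24h libraries. Among all genes, 1438 of 12830 were under 0.05 in WT from 0p5h to 24h and 789 of 13424 in its interaction. Between genotypes it was 2161 of 13022 in ctrl, 2103 of 12806 in 0p5h, 4877 of 12706 at 24h and 3449 of 14833 with libraries summed. Nothing is therefore read from the 6.

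The ligands were measured in the same libraries. Of 11 ligand and antagonist genes, 7 passed the filter. Il1b, a ligand of Il1r1 and Il1r2, was the ligand with the clearest change. Its means were 447 ± 258, 1169.8 ± 674 and 274 ± 159 CPM in WT ctrl, 0p5h and 24h, and 155 ± 41.4, 705 ± 399 and 218 ± 33 CPM in KO BMDCs (SD, n = 5). It was called higher in KO from ctrl to 0p5h (log2 change 2.17, SE 0.34, adjusted p = 0.0176) and lower from 0p5h to 24h (-1.68, SE 0.32, adjusted p = 0.0353). In WT the changes were 1.4 (SE 0.53, adjusted p = 0.82) and -2.09 (SE 0.56, adjusted p = 0.127), and with the replicate block both became calls, at 1.46 (adjusted p = 1.77e-05) and -2.20 (adjusted p = 0.000221). All 5 cultures of each genotype shared these directions, and they are those of Il1r2. The KO change from ctrl to 0p5h exceeded the WT change by 0.79 (SE 0.65, adjusted p = 1).

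Il1rn, the antagonist that blocks Il1r1, was lower in WT from 0p5h to 24h by a log2 change of -1.18 (SE 0.29, adjusted p = 0.086; with the block a call, at -1.19, adjusted p = 0.00112). Il18bp, which neutralises IL-18, had 56.8 to 470.5 CPM, against 3.65 to 11.4 CPM for Il18. Of the ligands of Il1rl2, Il36g had 1.12 to 10.1 CPM, Il36a at most 9 reads and Il36b at most 3, and the antagonist Il36rn had at most 1. From 0p5h to 24h, Il36g was higher in 5 of 5 KO and 1 of 5 WT cultures. With the replicate block the log2 change was 0.86 (SE 0.19, adjusted p = 0.00861) in KO and -0.16 (SE 0.19, adjusted p = 0.628) in WT. The KO change was under 2-fold, in a fit where 28.6% of all genes passed, and did not pass without the block. Il33, the ligand of Il1rl1, had 0.156 to 1.96 CPM, and Il1f10 had 0 reads in all 30 libraries.

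Of the signalling genes downstream of the receptors, all 11 passed the filter, and 0 were called in any comparison. With the replicate block and no fold minimum, some passed from 0p5h to 24h, all under 2-fold. They were 2 lower in WT, with Irak2 among them, and 2 higher in KO BMDCs. In these fits 11.3% and 28.6% of all genes passed. Irak2, the kinase that followed Il1rl2, had an adjusted p of 0.023 in WT from 0p5h to 24h with a log2 change of -0.52 (SE 0.10), under 2-fold and lower in 5 of 5 cultures, where 1.19% of all genes had an adjusted p under 0.05. Its means were 45.3 ± 2.89 and 31.5 ± 3.24 CPM in these sets. Irak2 was singled out by its likeness to Il1rl2 over libraries that include WT 24h, where low counts had chosen Il1rl2. That choice favours a lower Irak2 in WT at 24h, so nothing is read from its adjusted p, with or without the block. The median log2 change of the 11 genes was between -0.09 and 0.20 in every comparison, with and without the block. Next to the cluster, Map4k4 had 1131 to 2185 CPM, Slc9a4 1.17 to 3.93 CPM and Slc9a2 at most 6 reads.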

How the data were processed

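The authors deposited raw counts of reads per gene for 30 libraries, grouped here by genotype and library name. Per the file headers, featureCounts 1.5.1 counted exons of Ensembl release 79 (GRCm38) in alignments of read 1, with no option for strand, multiple alignments, overlaps or pairs. The submitters' processing notes name mm10 and DESeq2, while the study's methods name STAR 2.4, GRCm39 and a stranded kit. Unstranded counting can mix reads of opposite strands.

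Counts were tested with edgeR 4.0.16 (R 4.3.3; TMM, filterByExpr, quasi-likelihood test) between groups of 5, with Benjamini-Hochberg adjustment over all genes tested and calls at an adjusted p under 0.05 and at least 2-fold. Log2 CPM used a prior count of 2. Nothing in the labels ties a culture to 1 animal, so p-values measure the spread between cultures. Fits that hold several libraries of a culture without the block treat these as separate. Members, lists and tests were chosen with earlier results of these data known. All members, Cacnb3, ligands, called genes of the pathway list, cluster neighbours and the 5 genes most correlated with Il1rl2 were named by rule. Same-numbered libraries deviated together over 13755 genes (lowest r 0.317 to 0.60 in 5 comparisons of sets, 0.0746 for culture p974s843 between KO ctrl and 24h), so the culture number was accepted as a block except from KO ctrl to 24h and in its interaction. Alternatives were DESeq2 1.42.0, its size factors, no filter, all 30 libraries, removal of the GC trend, the block and leaving out each culture. The lane covariate and the block with no fold minimum were added after seeing the data. Scripts were tested on simulated data. A gene of the marker lists is not reported here.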

Additional observations from a re-analysis of the deposited data

Results flagged for a closer look

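In 3 of 54 groups of 5 libraries, 1 library lay apart from the other 4 by more than 0.71 of the group's range, Dixon's critical value for 5 values. Chance gives about 1 in 20 such groups. Il1rl1 had 3.89 CPM in KO 0p5h culture p974s865, against 0.42 to 1.33 CPM in the other 4 libraries. Il18r1 had 114 CPM in KO ctrl culture p974s843, against 69.5 to 81.5 CPM. Sigirr had 33.6 CPM in WT ctrl culture p974s856, against 24.1 to 26.1 CPM. No member's change passed a test of the difference between genotypes.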

How the results depend on the processing

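The counts of called members, taken over the 7 other than Il1rl2 where WT libraries that chose it were used, were 0 in each comparison tested and stayed at 0 with DESeq2, its size factors, no filter on low counts, all 30 libraries in 1 fit, the GC trend removed, the replicate block and the lane as a covariate, and, leaving out each culture in turn, from 0 to 0. With the replicate block and no fold minimum, an alternative chosen after seeing the data, 2 members passed in WT from 0p5h to 24h (Il1r2 and Sigirr), 1 in KO from ctrl to 0p5h and 1 in KO from 0p5h to 24h (Il1r2 in both). The pairing by culture number changed no call of these members at 2-fold, while Il1b in WT from ctrl to 0p5h and Il1b and Il1rn in WT from 0p5h to 24h became calls. For KO from ctrl to 24h, where culture p974s843 did not pair, the block gave Il1rl2 -0.17 (adjusted p = 0.653) and Il18rap -0.25 (adjusted p = 0.103). The ratio of Il1r2 to Il1r1 differed by 0.42 to 0.91 with a culture left out (exact permutation p = 0.0714 to 0.381) and by 0.67 (p = 0.183) from raw counts. Sigirr at 24h differed between genotypes by -0.81 to -0.56 with a culture left out (adjusted p = 0.00807 without KO culture p974s865 to 0.121), and by -0.60 with the lane (0.0891). The share of all genes that passed without culture p974s865 is not given here. Il1r2 in WT from ctrl to 24h moved from -0.57 to -0.80 with the lane as a covariate and no block. Of 1480 member values compared, 83 changed sign while uncalled in both fits, with main log2 changes up to 0.73. Il1rl1 and Il1rap, at 3 to 113 reads, were limited by depth.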
